A study of Mus musculus with 18 samples.

Results

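The mitochondrial ribosomal protein genes were taken from the count tables of 4T1 mammary tumors as every row whose Entrez identifier belongs to a protein-coding mouse gene with a symbol of the form Mrpl or Mrps followed by a number. Pseudogenes were left out. The rule found 77 genes among 22792 in the tables, spread over 17 chromosomes. All 77 had enough counts to be tested, with between 198 and 4498 counts per gene and tumor. By their place in the ribosome, 50 belong to the large subunit, among them Mrps30 and Mrps18a, 26 belong to the small subunit, and Mrps36, a part of the oxoglutarate dehydrogenase complex in spite of its symbol, was placed in neither. Mrpl33 was not analysed here.

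Mitochondria carry their own ribosome, which translates the few proteins that mitochondrial DNA encodes, all of them subunits of the respiratory chain and of ATP synthase. The RNAs of this ribosome come from mitochondrial DNA, whereas its proteins are encoded in the nucleus, made in the cytosol and imported. Some of these proteins have counterparts in the bacterial ribosome, and others arose in mitochondria. PI3K and SHP2, the targets of the inhibitors used here, are respectively a lipid kinase that signals for growth through AKT and mTOR, and a phosphatase that passes signals from receptor tyrosine kinases to the MAPK pathway.

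4T1 is a mouse cell line of triple-negative mammary carcinoma. Of these cells, 300000 were placed in the mammary fat pad of female Balb/c mice of 8 weeks, which then received vehicle (Vehicle, 5 tumors), the PI3K inhibitor CLR457 (PI3Ki, 4 tumors), the SHP2 inhibitor SHP099 (SHP2i, 4 tumors) or both inhibitors (Combo, 5 tumors). CLR457 was given at 20 mg/kg and SHP099 at 100 mg/kg, from day 7 to day 21, when tumors were taken 3 h after the last dose. All groups carry the same implanted line in an immunocompetent host, so each library holds RNA of carcinoma cells and of the mouse cells around them. PI3Ki replicate 4 and SHP2i replicate 1 were not analysed here. Between 21.16 and 26.62 M counts were assigned to genes per tumor. Epcam and the keratin genes Krt8 and Krt18, which mark carcinoma epithelium, were present in every tumor. Levels are given as CPM, counts set against the size of the library and scaled between tumors by the TMM method. A gene was called at an adjusted p under 0.05 in edgeR's quasi-likelihood test, adjusted over all 15282 genes tested.

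Over all tumors the mean level of a member ran from 11.37 to 154.2 CPM with a median of 32.59 CPM. Per length of transcript, the highest was Mrps6, a small subunit protein with a bacterial counterpart, at 149.8 CPM per kilobase. It was followed by the large subunit genes Mrpl13 at 126.1 CPM per kilobase and Mrpl52 at 111.4 CPM per kilobase. Mrpl32 at 5.734 CPM per kilobase and Mrpl19 at 5.972 CPM per kilobase were the lowest. Length was that of the longest transcript linked to RefSeq, 3013 bases for Mrpl32 and 5000 bases for Mrpl19, so this ranking depends on that choice. By CPM alone Mrpl19 was near the median, at 29.86 CPM, and Mrps22 was the lowest member, at 11.37 CPM. Exons of Mrps6 share bases with the sodium and inositol transporter gene Slc5a3 on the same strand, and 36.0% of the exon bases of Mrpl19 lie opposite exons of Gcfc2, so part of these levels may stem from the neighbouring gene. Within a group the members varied little between tumors, with a median coefficient of variation of 8.52% in Vehicle, 9.21% in PI3Ki, 9.98% in SHP2i and 9.46% in Combo.

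By the mean over the members, every Combo tumor lay below every Vehicle tumor by a narrow margin. By the sum and by the median the groups overlapped, and 44 of the 77 members did not pass the test one by one. For each tumor, the log2 CPM of each member was set against the mean of the Vehicle tumors, and the 77 differences were averaged. This mean was 0.034, 0.154, -0.018, -0.058 and -0.111 in Vehicle tumors 1 to 5. It was -0.120, -0.234, -0.371, -0.115 and -0.198 in Combo tumors 1 to 5, so that the highest Combo tumor lay just below the lowest Vehicle tumor. PI3Ki tumors 1, 2, 3 and 5 had means of -0.134, 0.015, -0.231 and -0.108, and SHP2i tumors 2 to 5 had means of -0.047, 0.013, -0.267 and -0.211. Each single treatment therefore overlapped with Vehicle and with Combo. Counted by gene, 52, 74, 35, 16 and 6 of the 77 members exceeded the Vehicle mean in Vehicle tumors 1 to 5, against 20, 3, 3, 25 and 17 in the Combo tumors. Summed over the members, the level ran from 2869 to 3432 CPM in Vehicle, from 2684 to 3127 CPM in PI3Ki, from 2619 to 3189 CPM in SHP2i and from 2430 to 2928 CPM in Combo. By this sum, Combo overlapped with Vehicle. The median of the 77 differences overlapped as well, at -0.086 in Combo 1 and -0.109 in Vehicle 5. In whole tumors, fewer cells of a type and less RNA per cell cannot be told apart.

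**Figure D1:**
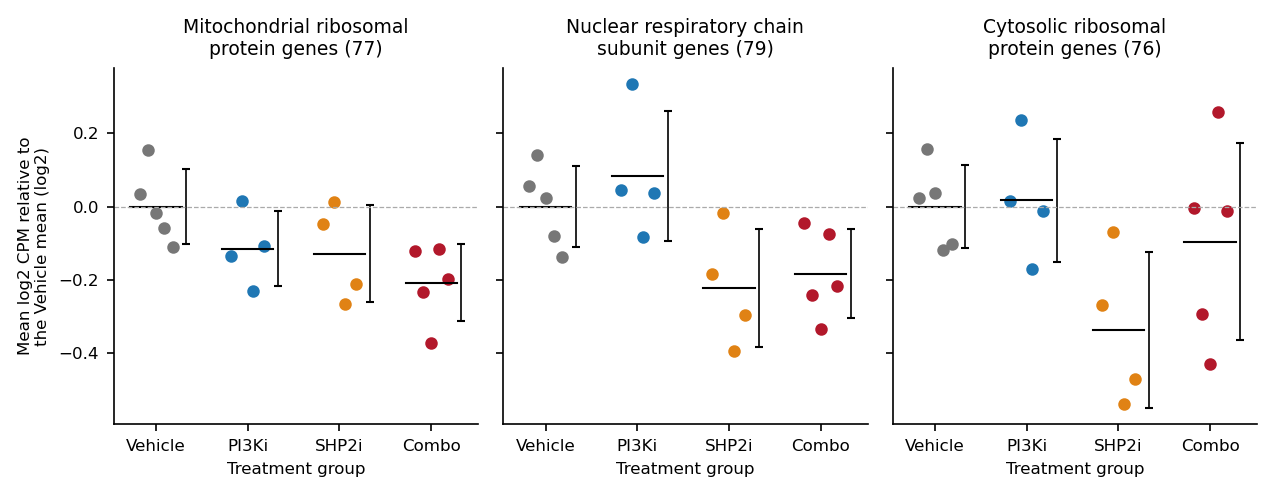
Mean log2 CPM relative to the Vehicle mean, 1 point per tumor, by treatment group, for the mitochondrial ribosomal protein genes (77), the nuclear genes for respiratory chain subunits (79) and the cytosolic ribosomal protein genes (76). Horizontal lines are group means and error bars are SD over tumors. The Combo tumors of the mitochondrial ribosomal protein genes lie between -0.371 and -0.115, just below the lowest Vehicle tumor at -0.111. The cytosolic ribosomal protein genes span -0.429 to 0.258 in Combo. The respiratory chain list includes genes of ATP synthase.

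Against Vehicle, 32 of the 77 members were lower in Combo and 1 was higher, and 44 were not called. Over all genes tested in this comparison, 19.7% were lower and 23.9% were higher, whereas 41.6% of the members were lower and 1.3% were higher. The median log2 fold change of the members was -0.206, a change of -13.3%, beside a median of 0.023 over all genes. The fold change had a negative sign in 70 of 77 members. Within groups, members rose and fell together, with a median r of 0.797 to the mean of the other members. Their mean also followed those of the respiratory chain genes (r 0.947) and the cytosolic ribosomal protein genes (r 0.9). The signs of members, here and in the comparisons below, are therefore not independent. No member passed an absolute log2 fold change of 1 (10.9% of all genes were called beyond it), and single members ranged from -31.8% to 14.1%. In 23 members every Combo tumor lay below every Vehicle tumor, and in 1 every Combo tumor lay above, beside 13.4% and 15.5% of all genes. The count of lower members ran from 25 without Combo 3 to 38 without PI3Ki 2 when each tumor was left out in turn.

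The lower members came from both subunits. In the large subunit, 17 of 28 members with a bacterial counterpart were lower (median log2 fold change -0.27), as were 6 of 22 members that arose in mitochondria (median -0.18). In the small subunit, 5 of 16 members with a bacterial counterpart (median -0.17) and 4 of 10 members of mitochondrial origin (median -0.17) were lower, and 1 of the latter was higher. These shares were not tested against each other. Mrps36 was not called, at a log2 fold change of -0.17 ± 0.11 (SE).

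**Figure D2:**
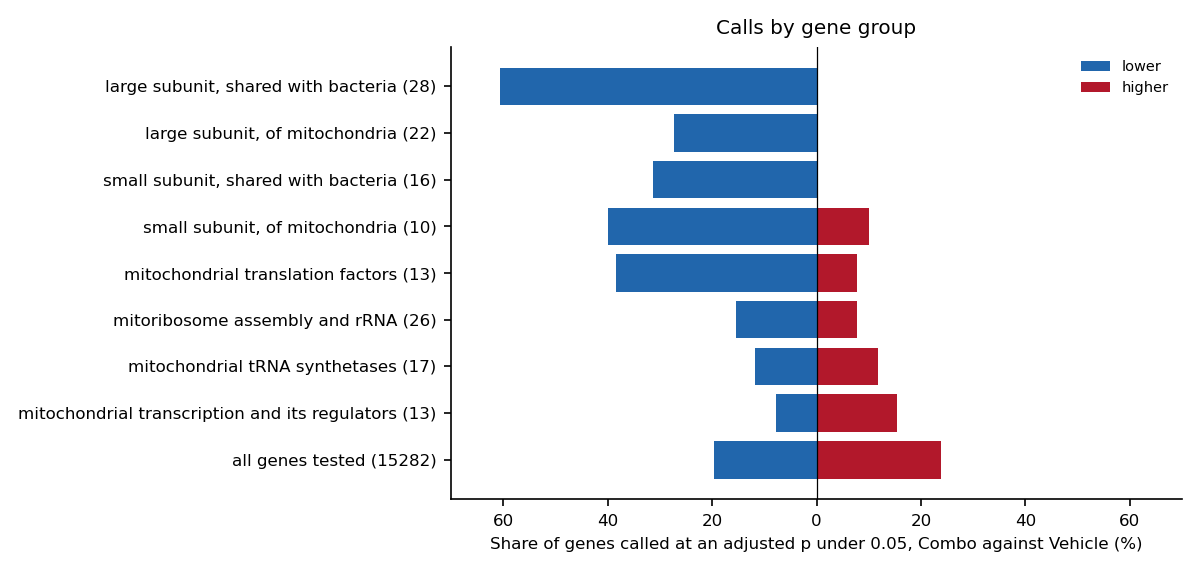
Share of genes (%) called lower (left, blue) or higher (right, red) in Combo than in Vehicle, for the members by place in the ribosome, for other gene lists of mitochondrial translation and for all genes tested, with the number of genes in parentheses. The large subunit proteins with a bacterial counterpart have 17 of 28 genes lower, beside 19.7% of all genes.

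In the large subunit the smallest p values belonged to Mrpl3, Mrpl20 and Mrpl46. Mrpl3, whose bacterial counterpart reaches into the peptidyl transferase centre where peptide bonds form, was at 43.16, 52.77, 44.04, 47.50 and 46.76 CPM in Vehicle tumors 1 to 5 and at 30.51, 36.71, 30.51, 33.90 and 32.55 CPM in Combo tumors 1 to 5. All Combo tumors lay below all Vehicle tumors and below all tumors of both single treatments, which were between 38.33 and 42.74 CPM. The log2 fold change against Vehicle was -0.51 ± 0.067 (SE, edgeR adjusted p = 1.82e-05).

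Mrpl20, a protein that binds the large subunit RNA, had 44.41, 48.11, 40.51, 40.08 and 39.43 CPM in Vehicle and 29.24, 32.60, 27.17, 30.88 and 29.01 CPM in Combo. The groups did not overlap, and the log2 fold change was -0.51 ± 0.086 (SE, edgeR adjusted p = 0.000161). Mrpl46, a large subunit protein without a bacterial counterpart, had 18.65, 23.63, 19.01, 19.08 and 19.50 CPM in Vehicle and 15.58, 13.77, 12.77, 13.78 and 13.06 CPM in Combo. Again the groups were apart, with Vehicle 2 well above the other Vehicle tumors, and the log2 fold change was -0.53 ± 0.095 (SE, edgeR adjusted p = 0.00029). Mrpl46 lies on chromosome 7 head to head with Mrps11, a small subunit gene on the other strand that had the largest fall of all members (-0.55 ± 0.12, SE, edgeR adjusted p = 0.00111) and is named here after its values were seen. The exons of this pair overlap by 173 bases, and the strand setting of the counting is not given in the sources used here, so reads of this stretch cannot be assigned to either gene with certainty.

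Among small subunit members the smallest p values were those of Mrps18b, Mrps22 and Mrps26. Mrps18b had 38.27, 42.95, 32.66, 36.22 and 36.29 CPM in Vehicle and 25.65, 27.32, 23.95, 27.55 and 25.86 CPM in Combo. All Combo tumors were lower than all Vehicle tumors (log2 fold change -0.52 ± 0.078, SE, edgeR adjusted p = 7.05e-05). Mrps22, whose loss in patients impairs mitochondrial translation, had 13.90, 13.97, 12.08, 13.41 and 12.65 CPM in Vehicle and 10.15, 9.882, 9.872, 8.767 and 8.768 CPM in Combo. This member was lower in every Combo tumor than in any other tumor of the series, as the lowest tumors were at 10.90 CPM in PI3Ki and 10.25 CPM in SHP2i (log2 fold change against Vehicle -0.48 ± 0.084, SE, edgeR adjusted p = 0.000277). Mrps26 had 60.24, 66.85, 56.64, 51.81 and 48.28 CPM in Vehicle and 44.42, 43.82, 37.82, 41.98 and 39.55 CPM in Combo, again without overlap (-0.45 ± 0.094, SE, edgeR adjusted p = 0.00101).

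Mrps25, a small subunit protein of mitochondrial origin, was the exception. It had 75.66, 73.62, 76, 71.67 and 70.79 CPM in Vehicle and 83.51, 80.66, 78.78, 91.04 and 85.73 CPM in Combo. All Combo tumors were higher, with a log2 fold change of 0.19 ± 0.058 (SE, edgeR adjusted p = 0.0137). The gene lies on chromosome 6 from 92169512 to 92184023 (GRCm38.p6, minus strand), and 69.8% of its exon bases lie opposite exons of Nr2c2, an orphan nuclear receptor gene that was itself higher in Combo (0.54 ± 0.11, SE, edgeR adjusted p = 0.0007). Without knowledge of the strand setting, reads of these genes cannot be told apart. Mrps25 was not called when libraries were scaled by upper quartile or by library size only, with values of 0.135 and 0.129.

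**Figure D3:**
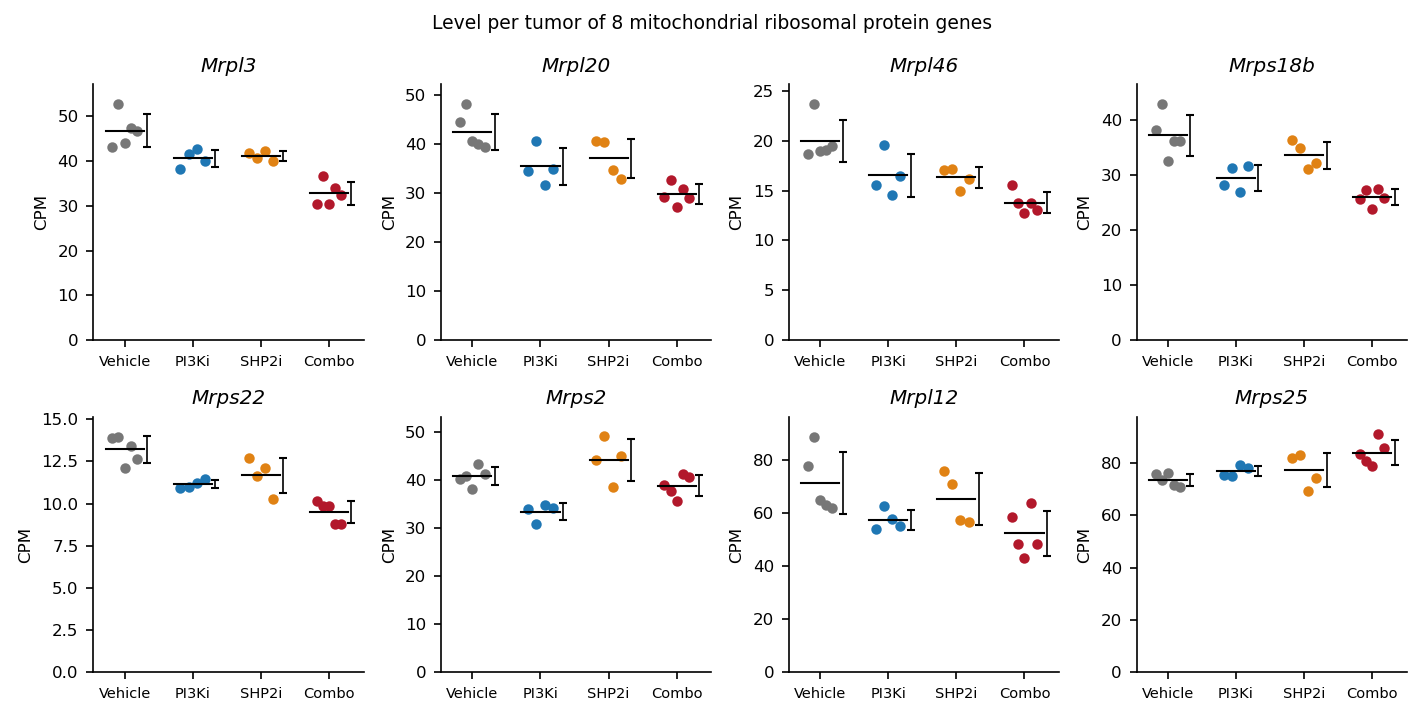
Level (CPM) of 8 mitochondrial ribosomal protein genes, 1 point per tumor, by treatment group. Horizontal lines are group means and error bars are SD over tumors. Mrpl3, Mrpl20, Mrpl46, Mrps18b and Mrps22 have all Combo tumors below all Vehicle tumors, Mrps2 is lowest in PI3Ki, and Mrps25 has its highest mean in Combo.

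Members with known roles in translation were examined by role, and differences between members were not tested. Of the stalk that recruits translation factors, Mrpl12 was lower in Combo (-0.44 ± 0.12, SE, edgeR adjusted p = 0.00756), with 77.97, 88.72, 65.23, 63.30 and 62.02 CPM in Vehicle and 58.73, 48.51, 43.32, 63.75 and 48.27 CPM in Combo. Combo 4 exceeded 2 of the 5 Vehicle tumors, so the groups overlapped. Mrpl11 at the base of the stalk was just within the threshold (-0.29 ± 0.11, SE, edgeR adjusted p = 0.0465) and was not called under 9 of 28 alternatives, and Mrpl10 was not called (-0.08 ± 0.072). In the catalytic centre Mrpl3 was lower and Mrpl2 was not called (0.07 ± 0.11). Around the tunnel through which the nascent chain leaves, Mrpl22 was lower (-0.43 ± 0.10, SE, edgeR adjusted p = 0.00243), whereas Mrpl23 (-0.02 ± 0.12) and Mrpl45 (0.08 ± 0.086), which tethers the ribosome to the inner membrane, were not called.

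Mrps12 of the decoding site had a log2 fold change of -0.31 ± 0.13 and an edgeR adjusted p of 0.0533, and passed the threshold under 16 of 28 alternatives. Mrpl58, a peptidyl-tRNA hydrolase built into the large subunit that rescues stalled ribosomes, was not called (-0.06 ± 0.097), and neither was Mrps28 of the small subunit (-0.21 ± 0.13). Of the Mrps18 paralogs, Mrps18b was lower, and the fold changes of Mrps18a (-0.08 ± 0.080), which sits in the large subunit, and of Mrps18c (-0.14 ± 0.12) did not pass the test. Mrps30, a large subunit protein in spite of its symbol, was lower (-0.22 ± 0.065, SE, edgeR adjusted p = 0.0106), as were Mrpl32 (-0.30 ± 0.094, SE, edgeR adjusted p = 0.0161) and Mrpl19 (-0.26 ± 0.084, SE, edgeR adjusted p = 0.0181). Without Vehicle 2, and likewise without Combo 5, Mrpl19 was not called (-0.207 and -0.224). The members with the highest level per length were not called, with log2 fold changes of 0.17 ± 0.12 for Mrps6, -0.22 ± 0.12 for Mrpl13 and -0.20 ± 0.11 for Mrpl52.

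**Figure D4:**
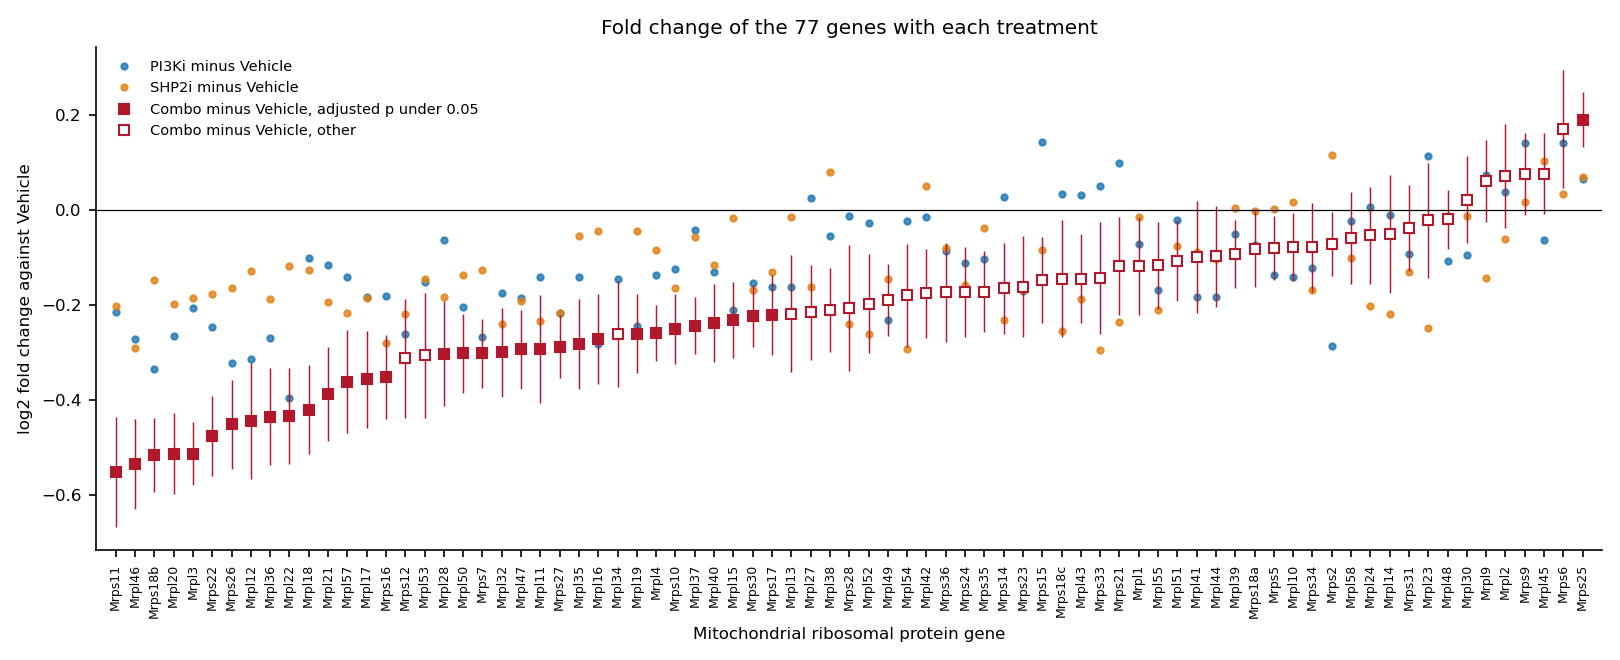
Log2 fold change against Vehicle of each of the 77 genes (1 position per gene, ordered by the Combo value) for PI3Ki (blue points), SHP2i (orange points) and Combo (red squares, filled where the adjusted p was under 0.05, with bars of 1 SE). Of the Combo values 70 lie below 0, from -0.55 for Mrps11 to 0.19 for Mrps25. All 3 treatments are set against the same 5 Vehicle tumors.

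The promoters of these genes were examined for letters bound by regulators of nuclear genes for mitochondrial proteins, as many members moved in the same direction. RefSeq windows of GRCm38.p6 from 250 bases before to 50 bases after the start of transcription were at hand for 68 of the 77 members and for 11592 protein-coding genes tested, and both strands were searched. The NRF1 letters, GCGC and TGCGC with any 1 base between them, were in the windows of 19.1% of members and 10.1% of all genes. The letters CCGGAAG, which GABPA and other ETS factors bind, were in 36.8% of members and 17.9% of all genes, and the YY1 letters AAGATGGC were in 17.6% and 4.6%. At least 1 of these 3 was found in 42 of 68 members (61.8%) and in 28.8% of all genes. In nuclear respiratory chain genes the NRF1, GABPA and YY1 shares were 23.4%, 26.6% and 15.6%. In cytosolic ribosomal protein genes they were 10.0%, 38.3% and 10.0%, so NRF1, GABPA and YY1 letters were not particular to the members. Other letters were less frequent or nearer to the share of all genes, with 7.4% of members and 11.0% of all genes for the E-box CACGTG, 50.0% and 64.8% for the SP1 letters GGGCGG, and 42.6% and 32.7% for the CRE letters TGACG. Of the 29 members with a window that were lower in Combo and the 39 that were not, 17.2% and 20.5% held NRF1 letters, 37.9% and 35.9% held GABPA letters and 24.1% and 12.8% held YY1 letters, and these shares were not tested against each other. A match describes letters only and does not show that a factor binds.

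**Figure D5:**
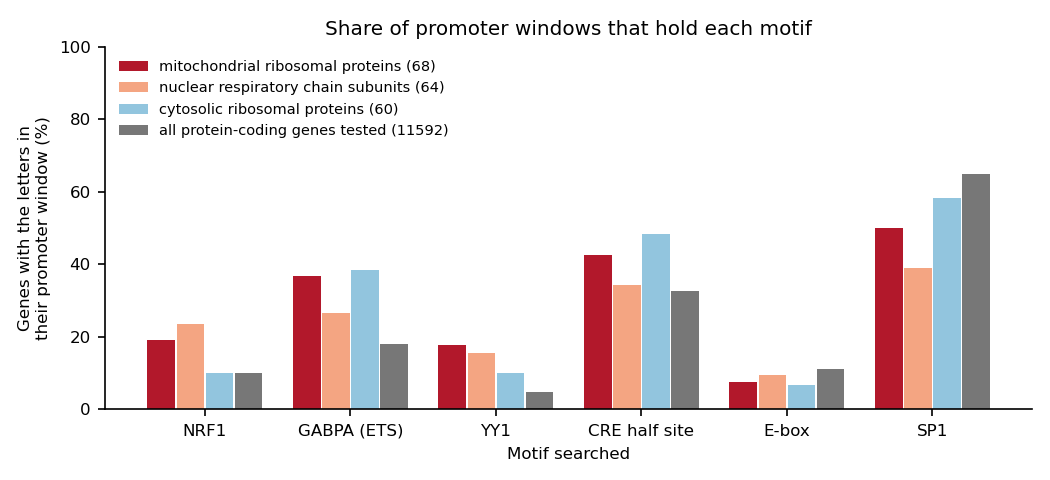
Share of genes (%) with the letters of each motif in the promoter window, for mitochondrial ribosomal proteins (68 genes), nuclear respiratory chain subunits (64), cytosolic ribosomal proteins (60) and all protein-coding genes tested (11592). NRF1, GABPA and YY1 letters are in 19.1%, 36.8% and 17.6% of the mitochondrial ribosomal protein genes, beside 10.1%, 17.9% and 4.6% of all genes. The respiratory chain genes have 23.4%, 26.6% and 15.6%, and the cytosolic ribosomal protein genes 10.0%, 38.3% and 10.0%.

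The stretches before the start of 4 members that were lower in Combo and of Mrps25, which was higher, are shown because they differ in these letters. They are given 5′ to 3′ along the strand of the gene, with NRF1, GABPA and YY1 letters in capitals, for Mrpl12 (chr11:120484387-120484612, plus strand), Mrpl17 (chr7:105811100-105811337, minus), Mrpl22 (chr11:58171414-58171660, plus), Mrps22 (chr9:98601680-98601929, minus) and Mrps25 (chr6:92184034-92184273, minus). Mrpl12 holds 1 NRF1 match, Mrpl17 holds 1 NRF1 and 1 GABPA match, Mrpl22 and Mrps22 hold 1 GABPA match each, and Mrps25 holds none. These stretches were picked and do not stand for all members. Mrpl20 and Mrpl46, also lower in Combo, hold none of these letters in their windows. Mrpl45, which was not called, holds NRF1 letters.
Mrpl12: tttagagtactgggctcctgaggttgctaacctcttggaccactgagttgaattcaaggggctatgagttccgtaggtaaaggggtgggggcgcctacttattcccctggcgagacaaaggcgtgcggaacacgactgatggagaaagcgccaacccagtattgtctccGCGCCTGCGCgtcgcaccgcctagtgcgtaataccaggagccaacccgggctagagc
Mrpl17: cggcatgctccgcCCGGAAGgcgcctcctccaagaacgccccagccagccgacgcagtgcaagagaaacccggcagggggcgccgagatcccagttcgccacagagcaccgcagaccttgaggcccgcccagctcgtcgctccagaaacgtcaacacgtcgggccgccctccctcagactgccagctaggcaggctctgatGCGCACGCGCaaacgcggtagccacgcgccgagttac
Mrpl22: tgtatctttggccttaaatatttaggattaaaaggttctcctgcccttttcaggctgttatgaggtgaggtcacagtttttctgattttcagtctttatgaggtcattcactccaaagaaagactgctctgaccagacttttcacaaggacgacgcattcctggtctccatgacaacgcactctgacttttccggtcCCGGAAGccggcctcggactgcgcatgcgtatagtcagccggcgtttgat
Mrps22: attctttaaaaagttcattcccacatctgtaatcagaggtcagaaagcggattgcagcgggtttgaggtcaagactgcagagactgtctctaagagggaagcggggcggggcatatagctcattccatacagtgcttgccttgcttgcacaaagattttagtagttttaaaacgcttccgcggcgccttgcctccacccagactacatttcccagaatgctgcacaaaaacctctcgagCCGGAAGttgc
Mrps25: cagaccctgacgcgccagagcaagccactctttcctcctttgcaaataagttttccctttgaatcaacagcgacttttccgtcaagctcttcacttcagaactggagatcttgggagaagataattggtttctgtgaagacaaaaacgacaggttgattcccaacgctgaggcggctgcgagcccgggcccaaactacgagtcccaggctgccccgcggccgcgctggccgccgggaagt

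With PI3Ki alone, 3 members were lower than in Vehicle and 0 were higher, beside 2.42% lower and 2.69% higher among all genes (5.11% in either direction). The count of members higher was 0 also in DESeq2 and in voom of limma, beside 615 and 937 of all genes. At an unadjusted p under 0.05 there were 19 members in either direction, beside 2982 of 15282 genes. The median log2 fold change was -0.130, with 0.012 over all genes, and 63 of 77 members had a negative sign. In 8 members all PI3Ki tumors lay below all Vehicle tumors and in none above, beside 5.36% and 5.16% of all genes. No member passed an absolute log2 fold change of 1, beside 1.75% of all genes. The 3 members called were Mrps18b, Mrpl22 and Mrps2.

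Mrps2, a small subunit protein with a bacterial counterpart, had 40.30, 40.96, 38.28, 43.44 and 41.39 CPM in Vehicle tumors 1 to 5 and 34.02, 30.95, 34.83 and 34.24 CPM in PI3Ki tumors 1, 2, 3 and 5. It had 44.17, 49.32, 38.70 and 45.03 CPM in SHP2i tumors 2 to 5 and 38.95, 37.87, 35.78, 41.42 and 40.61 CPM in Combo tumors 1 to 5. The PI3Ki tumors lay below all other tumors of the series, with a log2 fold change of -0.29 ± 0.072 (SE, edgeR adjusted p = 0.0275), and in Combo the gene was not called (-0.07 ± 0.067). Mrpl22, near the exit tunnel, had 24.19, 26.25, 22.98, 21.37 and 20.81 CPM in Vehicle and 17.29, 19.74, 16.34 and 16.95 CPM in PI3Ki, without overlap (-0.40 ± 0.11, SE, edgeR adjusted p = 0.0411). For Mrps18b the PI3Ki tumors had 28.19, 31.41, 27 and 31.67 CPM, below all Vehicle tumors (-0.33 ± 0.083, SE, edgeR adjusted p = 0.0255).

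These 3 calls rested on few tumors. The count of lower members was 0 without Vehicle 2 or PI3Ki 1, 1 without Vehicle 1, Vehicle 4, PI3Ki 3 or PI3Ki 5, and 6 without PI3Ki 2. Over all alternatives the fold change stayed between -0.38 and -0.27 for Mrps18b, between -0.45 and -0.34 for Mrpl22 and between -0.33 and -0.25 for Mrps2.

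With SHP2i alone, 0 of 77 members were called, beside 11.6% of all genes (6.54% lower and 5.05% higher). At an unadjusted p under 0.05 the count was 15, beside 4482 of 15282 genes. DESeq2 called 3 members lower, beside 1371 of all genes. In voom with quality weights 24 members were lower, beside 2434 of all genes. The median log2 fold change was -0.145, with 0.019 over all genes, and 67 of 77 members had a negative sign. In 5 members all SHP2i tumors lay below all Vehicle tumors and in none above, beside 10.5% and 8.6% of all genes. No member passed an absolute log2 fold change of 1, beside 3.74% of all genes. Among the 5 members without overlap was Mrpl3, with 41.92, 40.61, 42.28 and 39.93 CPM in SHP2i tumors 2 to 5. Vehicle had at least 43.16 CPM, and the log2 fold change was -0.19 ± 0.071 (SE, edgeR adjusted p = 0.0949). Mrpl46 was another of these 5, with 17.06, 17.20, 14.91 and 16.16 CPM (-0.29 ± 0.10, SE, edgeR adjusted p = 0.0702). The count of lower members became 1 without Vehicle 5 or PI3Ki 5, 3 without PI3Ki 2 and 5 without SHP2i 3.

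Set directly against the single treatments, Combo had fewer members called. Against PI3Ki, 8 members were lower and 1 was higher, beside 17.8% lower and 19.9% higher among all genes, with a median log2 fold change of -0.098. All PI3Ki tumors lay above all Combo tumors in 5 members and below them in 1, beside 11.2% and 13.2% of all genes. Against SHP2i, 10 were lower and 0 higher, beside 10.3% lower and 11.8% higher, with a median of -0.082. All SHP2i tumors lay above all Combo tumors in 8 members and below them in 0, beside 7.26% and 9.86% of all genes. No member passed an absolute log2 fold change of 1 in either comparison, beside 11.1% of all genes against PI3Ki and 4.57% against SHP2i. At an unadjusted p under 0.05, 22 members differed from SHP2i in either direction, beside 5531 of 15282 genes. None was called higher by DESeq2 or voom, beside 1975 and 1830 of all genes. Mrpl3 had the smallest p in both, at -0.31 ± 0.071 against PI3Ki (SE, edgeR adjusted p = 0.00278) and -0.33 ± 0.071 against SHP2i (SE, edgeR adjusted p = 0.00403). Mrps2 was the member higher than in PI3Ki (0.22 ± 0.072, SE, edgeR adjusted p = 0.0252).

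The counts against PI3Ki fell to 3 lower members without PI3Ki 1, PI3Ki 2 or Combo 5, to 4 without Combo 2 and to 5 without PI3Ki 5 or Combo 3, and no member was higher without PI3Ki 2, PI3Ki 5, Combo 4 or Combo 5. Those against SHP2i fell to 2 without SHP2i 2, to 4 without SHP2i 3 or Combo 4, to 5 without Vehicle 3 or Combo 3 and to 6 without Vehicle 4 or Combo 5. The interaction, which asks whether the Combo value departs from the sum of both single treatments on the log2 scale, was called for 0 of 77 members (beside 2.47% of all genes, 0.864% higher and 1.61% lower, and 1.67% past an absolute log2 value of 1). In edgeR 0 members had an unadjusted p under 0.05 for the interaction, beside 2843 of 15282 genes. DESeq2 and voom called 0 members as well, beside 766 and 486 of all genes. The median of the members was 0.039. All comparisons with Vehicle share the same 5 tumors, so their values for a member are not independent.

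The other genes of mitochondrial translation were examined in the same way. Among all genes tested, 19.7% were lower and 23.9% higher in Combo, and 6.54% lower and 5.05% higher in SHP2i. Of 5 mitoribosome proteins under other names, Chchd1 (-0.52 ± 0.099, SE, edgeR adjusted p = 0.000522) and Ptcd3 (-0.22 ± 0.067, SE, edgeR adjusted p = 0.0131) were lower. Of 13 genes listed as translation factors, 5 were lower and 1 was higher, namely Oxa1l (0.21), the insertase that places the new chains in the inner membrane. Beside Tufm and Gfm2, the lower genes were Tsfm (-0.51), Gfm1 (-0.28) and Letm1 (-0.23), which like Oxa1l are named after their values were seen. Oxa1l and Letm1 encode inner membrane proteins and are not translation factors in the strict sense. Tufm, the mitochondrial elongation factor Tu, had 65.92, 72.33, 63.48, 65.51 and 65.21 CPM in Vehicle and 46.70, 52.89, 49.40, 48.72 and 45.52 CPM in Combo. The groups did not overlap (-0.45 ± 0.068, SE, edgeR adjusted p = 6.7e-05). Gfm2, which splits the ribosome after termination, was lower in Combo (-0.47 ± 0.084, SE, edgeR adjusted p = 0.000261) and in SHP2i (-0.61 ± 0.089, SE, edgeR adjusted p = 0.000395).

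Of 26 genes for ribosome assembly and rRNA, 4 were lower and 2 were higher in Combo, with a median log2 fold change of 0.001. Called in either direction were 23.1% of them, beside 43.6% of all genes. Named after their values were seen, Ddx28 (-0.36) and Rbfa (-0.27) were lower and Mrm1 was higher (0.30), beside the genes that follow. Noa1, a GTPase of ribosome assembly, was lower in Combo (-0.46 ± 0.089, SE, edgeR adjusted p = 0.000571) and in PI3Ki (-0.43 ± 0.095, SE, edgeR adjusted p = 0.0118), and Mrm3, a methyltransferase of the large rRNA, was lower in Combo (-0.40 ± 0.11, SE, edgeR adjusted p = 0.00876) and in PI3Ki (-0.46 ± 0.12, SE, edgeR adjusted p = 0.0356). Mterf4, which guides an rRNA methyltransferase, was higher in Combo (0.64 ± 0.17, SE, edgeR adjusted p = 0.00676). Among 17 tRNA synthetases Tars2 and Yars2 were lower and Iars2 and Vars2 higher in Combo, led by Tars2 (-0.51 ± 0.078, SE, edgeR adjusted p = 7.73e-05) and Iars2 (0.46 ± 0.10, SE, edgeR adjusted p = 0.00163). Mars2 had 6.971, 7.823, 5.014, 7.794 and 6.368 CPM in Vehicle and 2.356, 2.856, 3.706 and 3.220 CPM in PI3Ki, apart from all other groups (-1.16 ± 0.17, SE, edgeR adjusted p = 0.000529). Yars2 was lower in PI3Ki as well (-0.41 ± 0.099, SE, edgeR adjusted p = 0.0208). Called in either direction were 23.5% of the synthetases in Combo, beside 43.6% of all genes. In PI3Ki 7.69% of the assembly genes and 11.8% of the synthetases were called, beside 5.11% of all genes. In SHP2i Lars2 was lower (-1.0 ± 0.31, SE, edgeR adjusted p = 0.0465), with Vehicle 5 at 630.5 CPM beside 154.6 to 224.9 CPM in the other Vehicle tumors and a value of -0.471 without it. Over 28 alternatives, which include a limit on the fold change, the call was lost in 13 for Lars2, in 10 for Mrm3 in PI3Ki and in 4 for Yars2 in PI3Ki.

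Among 13 genes for mitochondrial transcription and its regulators, Tfb2m, a transcription factor of mitochondrial DNA, and Yy1 were higher in Combo (0.34 ± 0.11, SE, edgeR adjusted p = 0.0163, and 0.31 ± 0.079, SE, edgeR adjusted p = 0.00409), and Pprc1 was lower (-0.38 ± 0.14, SE, edgeR adjusted p = 0.0377). In PI3Ki 2 of the 13 were lower, namely Myc (-0.53 ± 0.10, SE, edgeR adjusted p = 0.00456) and the coactivator Pprc1 (-0.56 ± 0.15, SE, edgeR adjusted p = 0.0389), and in SHP2i the coactivator Ppargc1b was higher (0.52 ± 0.16, SE, edgeR adjusted p = 0.0435). Called in either direction were 23.1% of the list in Combo, 15.4% in PI3Ki and 7.69% in SHP2i. Over all genes these shares were 43.6%, 5.11% and 11.6%. The call was lost under 18 of 28 alternatives for Ppargc1b (adjusted p up to 0.124) and under 2 for Tfb2m. For Pprc1 it was lost under 10 in PI3Ki and under 8 in Combo.

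Beside these lists, the nuclear respiratory chain list, which includes ATP synthase genes, had 14 of 79 lower in Combo and 1 higher, Ndufv3. Its median log2 fold change was -0.138, and the mitoribosome makes partners of many of the subunits. Over all genes 19.7% were lower and 23.9% higher in Combo. The cytosolic ribosomal protein genes had 4 of 76 lower and 0 higher in Combo (median -0.074). Of those 4, Rps3 is a subunit, Rpl22l1 and Rps27l are paralogs of subunits, and Rps19bp1 is a binding partner of one. In SHP2i no member was called, and 11 of the 76 cytosolic genes were lower (median -0.354). Of 79 respiratory chain genes 5 were lower (median -0.198), beside 6.54% of all genes. In PI3Ki 1 of 76 cytosolic genes was lower, Rpl7l1, and 1 higher, Rpl3l (median 0.000), and the respiratory chain genes had 0 lower and 2 higher, Cox6a2 and Cox7a1, which are the forms of heart and skeletal muscle. Over all genes 2.42% were lower and 2.69% higher in PI3Ki. The genes named from both lists were picked after their values were seen, and the differences between lists were not tested.

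Several other groups of genes moved with the treatments. Of all genes, 19.7% were lower and 23.9% higher in Combo, 6.54% were lower in SHP2i and 2.69% were higher in PI3Ki. In Combo 12 of 14 macrophage markers were lower, with a summed level of 927.5 to 3033 CPM against 4873 to 6914 CPM in Vehicle, 11 of 12 endothelial markers were lower (445.7 to 553.1 against 763.3 to 948 CPM), and 11 of 21 proliferation genes were lower (1521 to 3579 against 2854 to 3418 CPM). Of the 12 markers of carcinoma epithelium 1 was lower, with a summed level of 716.1 to 1092 CPM against 817.1 to 1297 CPM. Also lower in Combo were 9 of 13 neutrophil markers (101 to 346.4 against 316.4 to 519.6 CPM) and 7 of 13 markers of T and NK cells (27.1 to 130.2 against 84.11 to 174.3 CPM), and of 10 fibroblast markers 4 were lower and 2 higher (2263 to 5227 against 3833 to 6619 CPM). In SHP2i 10 of 14 macrophage markers were lower (1750 to 3436 CPM). In PI3Ki 18 of 19 skeletal muscle genes were higher (1001 to 2391 CPM against 15.83 to 134.3 CPM in Vehicle). None of these markers was at 0 in all tumors. The 905 genes other than members with transcripts under 1000 bases had a median log2 fold change of -0.127 in Combo, -0.206 in SHP2i and 0.034 in PI3Ki, and 24 members have such transcripts. In Combo 207 of these 905 genes were lower (22.9%, beside 19.7% of all genes) and 112 were higher. In SHP2i 101 were lower (11.2%, beside 6.54% of all genes) and 7 higher (beside 5.05%). In PI3Ki 5 were lower (0.552%, beside 2.42%) and 24 higher (beside 2.69%). The part of these shifts in the values of the members was not tested.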

How the data were processed

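RNA-seq libraries of 18 tumors were grouped by the treatment in the sample labels. Before they deposited the values, the authors isolated poly(A) RNA and prepared directional libraries. Reads were trimmed (cutadapt) and mapped by STAR to the mouse genome (GRCm38), and QuasR (qCount) gave the counts of each gene. The deposited counts are whole numbers without normalization. Tool versions, the annotation and the strand setting are not given in the sources used here. The labels also name a human build, although the identifiers are those of mouse genes.

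Symbols, positions and promoter windows came from RefSeq tables (GRCm38.p6). Exon overlaps and transcript lengths came from GENCODE models of GRCm38. The length was that of the longest transcript linked to RefSeq, or of all exons where none was linked. Counts were fitted in R 4.3.3 with edgeR 4.0.16, using filterByExpr (minimum count 10, minimum total 15), TMM factors and 1 quasi-likelihood model over all 18 tumors, with Benjamini-Hochberg adjustment over 15282 genes. The SE of a log2 fold change was obtained from its size and the F statistic (absolute value over the root of F). Log2 CPM used a prior count of 2. The procedure was tested on simulated data in which 200 genes were changed in Combo and all genes varied independently. It does not bear on the count of members called together. Depth was 21.16 to 26.62 M counts per tumor (median 23.52 M). The study describes the tumors of a group as coming from separate animals.

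The members, the gene lists and the tests were chosen with earlier results of these data known. Named genes were the 3 called members with the smallest p per subunit, direction and treatment, the 3 highest and 2 lowest members per length, members fixed by role, any with a called interaction or an absolute log2 fold change over 1, and the 2 called genes with the smallest p of each other list. Mrpl17 was added for its promoter after its values were seen, and 1 gene that the rule names is not reported here. Alternatives were DESeq2 1.42.0, limma 3.58.1 voom with quality weights, other scaling factors and filters, a fold limit, only the groups compared, a replicate block and each tumor left out.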

Additional observations from a re-analysis of the deposited data

Results flagged for a closer look

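Single tumors that stood apart from the rest of their group by Dixon's test were looked for in 184 groups of 4 or 5 tumors. There were 6 such tumors, fewer than chance gives at about 1 in 20 groups. Vehicle 2 was high for Mrpl46 (23.63 CPM), for the neighbouring gene Mrps11 (19.21 CPM) and for the elongation factor gene Tufm (72.33 CPM). Vehicle 1 was high for Mrps6 (130.2 CPM). Vehicle 5 was high for Lars2 (630.5 CPM) and low for Yy1 (80.21 CPM).

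The response to 1 inhibitor differed with the other inhibitor present for 2 of the named genes, neither of them a member. The interaction on the log2 scale was 1.17 for Mars2 (edgeR adjusted p = 0.0171) and 0.63 for Myc (edgeR adjusted p = 0.0286). Both were lower in PI3Ki than in Vehicle and were not called in Combo.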

How the results depend on the processing

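The count of 32 lower members in Combo against Vehicle stayed within 1.5 times under each other test, scaling and filter, and no fold change of a named gene that was called turned its sign. With a limit of 1 on the absolute log2 fold change all counts were 0. Calls in the other comparisons depended on the processing. In PI3Ki the lower members were 6 in DESeq2, 9 with library size only and 13 in voom. Of all 15282 genes, 630, 583 and 978 were lower there, beside 370 with edgeR and TMM. In SHP2i the lower members were 3 in DESeq2, 24 in voom and 4 with only the groups compared. They were 2 with upper quartile factors, 2 with library size only and 2 with at least 1 CPM in 4 tumors. Lower among all genes were 1371, 2434, 1846, 1137, 1022 and 1007 in that order, beside 1000 with edgeR and TMM. Against Vehicle no member (0) was higher in Combo with upper quartile factors or library size only, beside 3149 and 2989 of all genes. Against PI3Ki, 0 members were higher in Combo with upper quartile factors, without a filter, in voom or with only the groups compared. Of all genes 2650, 2585, 2743 and 2024 were higher there. The lower members were 3 in voom and 2 with only the groups compared, beside 2389 and 1931 of all genes. Against SHP2i the lower members were 21 with library size only, 3 in voom and 4 with only the groups compared. Of all genes 2104, 1549 and 923 were lower there, beside 1577 with edgeR and TMM. With only the groups compared no interaction was run.

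With each tumor left out, lower members ranged from 25 to 38 in Combo, 0 to 6 in PI3Ki and 0 to 5 in SHP2i. They ranged from 3 to 11 in Combo against PI3Ki (higher 0 to 1) and 2 to 15 in Combo against SHP2i. Calls over all genes moved too. Lower in Combo were 2975 genes without Combo 3 (25 members) and 3398 without PI3Ki 2 (38 members). Lower against SHP2i were 1111 genes without SHP2i 2 (2 members) and 1876 without PI3Ki 2 (15 members). The median log2 fold change of the members ranged from -0.239 to -0.139 in Combo, -0.177 to -0.073 in PI3Ki, -0.188 to -0.098 in SHP2i, -0.133 to -0.058 against PI3Ki, -0.121 to -0.036 against SHP2i and -0.008 to 0.096 for the interaction.

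The replicate numbers did not pair the tumors: over 24 pairs of equal number the correlation of deviations ran from -0.42 to 0.326 (median 0.018), and 4 of 18 tumors correlated best with their own number. With a replicate block, 32 members were lower in Combo, 1 in SHP2i and 5 against PI3Ki, where 0 were higher. Of all genes 2957, 946 and 2568 were lower there, and 2707 were higher against PI3Ki.

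Over all genes, calls in PI3Ki were 781 (411 higher, 370 lower), but 1245 in DESeq2, 1915 in voom and 937 (354 higher, 583 lower) with library size only. In SHP2i they were 1772, but 4818 in voom and 3192 with only the groups compared. Combo against SHP2i had 1798 higher and 1577 lower, but 1248 and 2104 with library size only. It had 3375 calls, but 2212 with only the groups compared. The interaction had 378, but 766 in DESeq2 and 200 with the block. The cause of these differences was not tested. Each member had at least 198 counts per tumor, and an effect of depth on the calls was not tested.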
